A study of Mus musculus with 2 samples.

Results

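Venous-side endothelial cells are the cells that line the veins and venules of the brain and the capillary segments that drain into them. They were taken here by a rule on unique molecular identifiers (UMIs), each of which stands for 1 captured RNA molecule. A barcode had at least 2000 UMIs, at most 10% of them mitochondrial, and at least 0.2% from the endothelial genes Cldn5 and Flt1. Its pericyte genes (Vtn, Kcnj8, Rgs5) stayed under 0.1%, its microglial genes (Tmem119, P2ry12, Siglech, Gpr34, Sall1) under 0.2%, and its platelet genes (Ppbp, Gp9, Clec1b) and arterial genes (Gkn3, Bmx, Sema3g) each under 0.05%. Among those barcodes, at least 0.05% of the UMIs, and at least 2 of them, came from Slc38a5 and Vwf. The rule kept 1184 of 37387 barcodes: 631 of 18228 labelled WT and 553 of 19159 labelled KO.

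From mouse brain, 2 droplet libraries of single-cell RNA (10x Genomics 3′ chemistry) were made, 1 per group, to ask what the loss of CD200R1, an inhibitory receptor of myeloid cells, does to the aged brain. The library labelled WT came from wild-type mice and the library labelled KO from CD200R1-/- mice, both aged 18 months, both on the C57BL/6J background and both untreated. The mice were perfused, and brain tissue was dissociated with a commercial kit and passed through magnetic selection for CD11b, a surface protein of myeloid cells, so the endothelial cells are cells that came through a selection not aimed at them. The number of mice behind a library is not stated. With 1 library per group there is no replicate check: genotype, animal, dissection and library preparation cannot be told apart, no test was run, and every interval below covers counting error only.

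The brain's vessels carry a gradient of endothelial states from artery through capillary to vein. Veins and venules are the segment where leukocytes attach and cross, through adhesion proteins such as VCAM-1 and ICAM-1, and where circulating cytokines are sensed through receptors such as the interleukin-1 receptor. Endothelial cells also carry CD200, the ligand of CD200R1, and respond to type I interferon by inducing antiviral genes through transcription factors such as STAT2 and IRF9, which act on a short promoter element known as the interferon-stimulated response element.

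The widest difference between the libraries was in genes of that kind, so the promoters of 3 of them are shown. Each line gives 120 bases from upstream of a RefSeq start site (GRCm38.p6), read 5′ to 3′ on the gene's own strand, with matches to the core of that element in capitals. The core searched was GAAA, any 2 bases and GAAA again, or its reverse complement TTTC, any 2 bases and TTTC. They were chosen because Isg15, Ifit1 and Ifit3 were among the 4 genes with the highest ratios and hold the core. The stretches lie at chr4:156200865-156200984 on the minus strand for Isg15, chr19:34640704-34640823 on the plus strand for Ifit1 and chr19:34583307-34583426 on the plus strand for Ifit3.
Isg15: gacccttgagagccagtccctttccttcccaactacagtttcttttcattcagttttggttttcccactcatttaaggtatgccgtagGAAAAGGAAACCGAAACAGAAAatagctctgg
Ifit1: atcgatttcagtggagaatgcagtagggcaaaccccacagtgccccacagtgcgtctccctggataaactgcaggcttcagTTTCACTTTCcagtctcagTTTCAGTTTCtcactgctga
Ifit3: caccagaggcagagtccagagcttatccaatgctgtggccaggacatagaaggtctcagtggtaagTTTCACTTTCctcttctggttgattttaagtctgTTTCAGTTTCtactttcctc
The Isg15 stretch holds 3 overlapping matches on the gene's strand, and the Ifit1 and Ifit3 stretches hold 2 each on the opposite strand.

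Searched on both strands of the 250 bases before each start site, the core was present in 978 of 32851 RefSeq promoters (2.98%). Among genes with at least 20 UMIs in the venous-side cells and a promoter in the table, 326 of 9989 held it (3.26%). The type I interferon list had it in 10 of 21 genes with a promoter in the table (47.6%), the interferon-inducible GTPase list in 10 of 13 (76.9%) and the MHC class I list in 3 of 18 (16.7%). Irf7 and Ifi44, which come up below with high ratios, have promoters in the table without these letters. A match describes the letters of a window and does not show that a factor was bound there.

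The venous-side cells were the deepest of the endothelial groups. They held 9898753 UMIs labelled WT and 7444694 labelled KO, with medians of 10018 and 9874 UMIs and of 3594 and 3647 genes per cell. The arterial cells, with at least 0.05% and at least 2 UMIs from the arterial genes, had medians of 8215.5 and 7236 UMIs (580 and 451 cells). The other endothelial cells, below both cuts, had medians of 5971.5 and 4794 (1452 and 1509 cells). Levels below are therefore given as counts per 1000000 UMIs (CPM), from the summed UMIs of a group in a library, and shares of cells with a UMI after each cell was thinned to 2000 UMIs.

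As a share of the 2663 and 2513 barcodes that passed the endothelial gate, venous-side cells made up 23.7% (Clopper-Pearson 95% interval 22.1 to 25.4) labelled WT and 22.01% (20.4 to 23.7) labelled KO. The ratio of these shares was 0.929 (0.827 to 1.04), so the interval includes equal shares. The ratio turned on the rule: it was 0.789 with a cut of 0.1% (266 and 198 members), 0.633 with Slc38a5 alone (139 and 83) and 1.22 with strict gates on all other classes (167 and 91). Arterial cells were 21.8% and 17.9% of the same barcodes. No barcode was a member in both libraries. The libraries had 103 barcode sequences in common, among them those of 5 members labelled WT and 4 labelled KO.

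Cells lay close to the cut on both sides. The member with the lowest summed share of Slc38a5 and Vwf was at 0.0503% labelled WT and 0.0501% labelled KO, and the non-member closest below the cut was at 0.04992% and 0.04999%. Members under 0.06% numbered 109 and 93, and non-members at 0.04% or over numbered 150 and 123. The median member was at 0.0893% and 0.0851%, and the highest at 0.592% and 0.462%. The shares thus ran on through the cut without a gap. Near the cut they rest on few UMIs per cell, and the rule itself used them. They therefore cannot tell a range of a gradient from a set of cells that stands apart.

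Slc38a5 (chrX:8271133-8280179 on GRCm38), a transporter of glutamine and related amino acids, chose the cells and is given as a description only. It stood at 324 CPM labelled WT and 282 labelled KO, against 51.3 and 37.3 in the other endothelial cells. Vwf (chr6:125546774-125686679), von Willebrand factor, the platelet-binding protein of blood clotting, was at 857 and 812, against 123 and 129 in the other cells and 268 and 228 in the arterial cells. Cldn5, the tight junction claudin of the blood-brain barrier, was at 3277 and 2723 in the venous-side cells.

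The venous name held against markers that the rule did not use. Over 13262 genes with at least 50 UMIs, 44 (0.332%) were higher in venous-side than in other endothelial cells by 2-fold or more in both libraries, and 60 (0.452%) were lower by as much. Of 14 venous markers outside the rule, 11 were among the 44, 13 were higher in both libraries, and Adamts1, a secreted protease, was lower in both. The list's median log2 difference was 1.89 labelled WT and 1.76 labelled KO. All 14 arterial markers outside the gate were lower in both libraries, 5 of them at least 2-fold, and of 14 capillary markers none was 2-fold higher and Cxcl12 and Ivns1abp were 2-fold lower in both.

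Vcam1 (chr3:116109949-116129688 on GRCm38), the adhesion protein that captures leukocytes carrying the integrin VLA-4, was at 566 CPM labelled WT and 476 labelled KO, against 50.6 and 43.7 in the other endothelial cells. The arterial cells lay between, at 185 and 188. At 2000 UMIs per cell, 34.1% and 29.8% of venous-side cells had a Vcam1 UMI, against 5.37% and 5.10% of the other endothelial cells and 6.10% and 6.55% of microglia. Il1r1 and Vwf, at higher levels than Vcam1 in venous-side cells, reached 0.765% and 1.003% of thinned microglia labelled WT and 0.575% and 0.894% labelled KO, so the microglial share of Vcam1 is above theirs. Whether microglia hold Vcam1 RNA of their own was not tested. The venous-side share of Vcam1 was above the microglial one in both libraries.

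Il1r1 (chr1:40225080-40317257), the signalling receptor for interleukin-1, was at 989 and 637 CPM, against 84.0 and 69.2 in the other endothelial cells and 52.2 and 21.6 in arterial cells. Thinned cells with an Il1r1 UMI were 53.2% and 43.2% of venous-side cells and 7.99% and 7.29% of the others. Nr2f2, the nuclear receptor COUP-TFII that specifies vein identity, was at 263 and 242 CPM, against 73.1 and 59.4 in the other cells and 29.0 and 26.8 in arterial cells. These genes therefore ordered the groups differently: Nr2f2 and Il1r1 were lowest in arterial cells, and Vcam1 was lowest in the other endothelial cells.

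Several others of the top genes encode secreted proteins. Lrg1, a leucine-rich glycoprotein of the acute phase, was at 79.4 and 70.5 CPM against 4.46 and 1.76 in the other cells. Lcn2, the siderophore-binding lipocalin, was at 250 and 148 against 39.3 and 14.9. C4b, a complement component, was at 202 and 191 against 27.3 and 26.2.

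Ch25h, which makes the immune oxysterol 25-hydroxycholesterol, stood at 73.6 and 51.4 CPM, and Wnt5a, a secreted Wnt ligand, at 155 and 137, against 6.24 and 4.12 and against 36.2 and 31.1 in the other cells. Cyp2e1, a cytochrome P450, Adgrg6, an adhesion G protein-coupled receptor, Sdk1, a cell adhesion protein, and Myof, a membrane repair protein, were also among the 12 genes with the widest excess in both libraries. The log2 differences of these 4 ran from 1.83 for Myof to 2.78 for Adgrg6.

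The lower end held arterial genes. Cdh13, a cadherin without a cytoplasmic tail, was at 11.7 and 8.60 CPM in venous-side cells, 98.2 and 80.8 in the others and 341 and 233 in arterial cells. Hey1, the Notch target that marks arteries, was at 7.98 and 9.0 against 48.8 and 50.8. Lypd1, Stmn2, Alpl, Runx1t1 and Rad54b had the same order, from venous through other to arterial. Cxcl12, the chemokine ligand of CXCR4, was at 811 and 677 against 2336 and 1999. Fabp7, Npy, Csmd1 and Ncam1 were also in the lowest 12. In venous-side cells labelled WT, however, 5 cells held 73.1%, 75.8%, 92.3% and 89.9% of their UMIs, so their levels there rest on a few barcodes. How their UMIs were spread over the other endothelial cells was not examined.

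**Figure D1:**
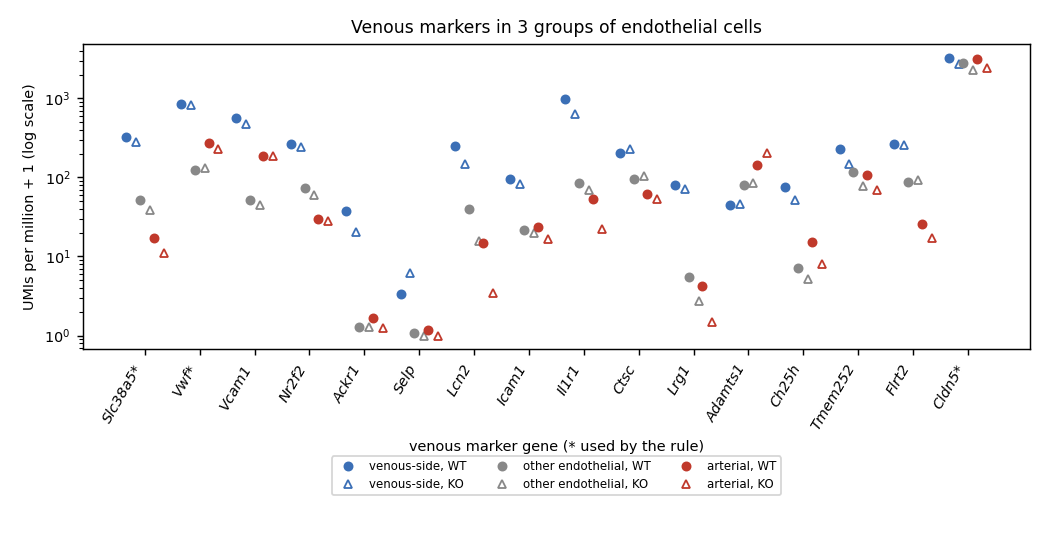
CPM plus 1 (log scale) of 16 venous markers in venous-side (blue), other (grey) and arterial (red) endothelial cells, with filled circles for the library labelled WT and open triangles for the library labelled KO; each point is 1 sum over cells, with no error bar. Vcam1, Il1r1, Lrg1 and Nr2f2 are highest in venous-side cells in both libraries, and Adamts1 is lowest there.

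Members differed among themselves along the same axis. When endothelial cells labelled WT were put in order of their Slc38a5 and Vwf share, Vcam1 was at 22.3 CPM in cells with neither gene, at 98.3 just below the cut, at 249 just above it (0.05 to 0.07%), and at 1401 in the 36 cells with at least 0.2%. Il1r1 went from 21.0 through 533 to 1631 between the same first, middle and last groups. Ackr1, the atypical chemokine receptor of post-capillary venules, was at 1.98 just above the cut, 54.6 between 0.1 and 0.2%, and 129 above that. Nearly all of the Ackr1 signal therefore came from the members richest in the rule's genes, but it rests on few barcodes. Ackr1 was found in 62 members labelled WT and 49 labelled KO, and 5 cells held 55.7% and 37.1% of its UMIs. A single cell labelled WT held 147 of them.

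Mfsd2a and Tfrc, capillary genes picked here after their values were seen, did not follow the same course along that order. Mfsd2a, the lipid transporter that restrains transcytosis, was at 195 CPM just above the cut and 27.0 in the top group labelled WT, and at 197 and 28.6 labelled KO. Tfrc, the transferrin receptor through which iron enters the brain, was highest in the middle: 407 just above the cut labelled WT, 403 in the next group, and 89.7 at the top. In the library labelled KO it was at 468, 501 and 180 in those groups. The summed UMIs of members near the cut thus held Mfsd2a and Tfrc beside Vcam1 and Il1r1. Whether single cells carried them together was not tested. Of the 14 capillary markers, 5 were higher and 7 lower in venous-side than in other endothelial cells in both libraries. Median depth rose along the same order, from 7603 UMIs just above the cut to 17012.5 at the top labelled WT, and its part in the trend was not tested.

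**Figure D2:**
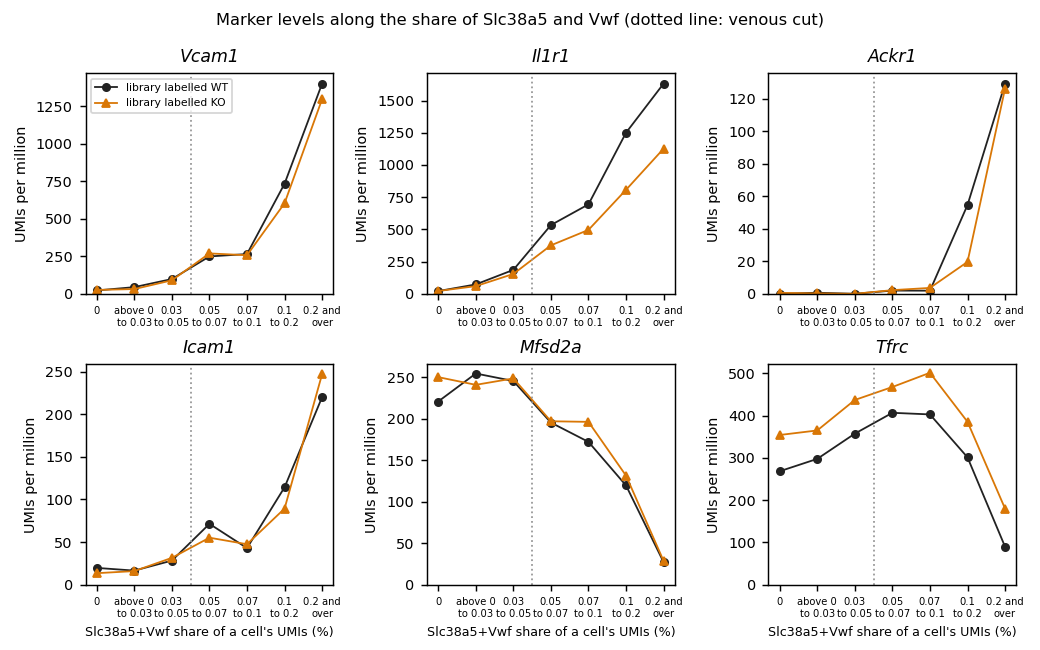
CPM of 6 genes in endothelial cells grouped by the share of Slc38a5 and Vwf in their UMIs (x axis, percent), for the library labelled WT (black circles) and KO (orange triangles); the dotted line is the cut of 0.05%. Vcam1, Il1r1, Ackr1 and Icam1 are highest in the top group, Mfsd2a is lowest there, and Tfrc peaks between 0.05 and 0.1%.

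Which of the rule's genes a cell carried also mattered. Cells with at least as many Slc38a5 as Vwf UMIs numbered 137 and 106, cells with both and more Vwf 386 and 320, and cells with Vwf alone 108 and 127. Their median depths labelled WT were 6940, 17087.5 and 5299 UMIs, and the part of depth in the absence of Slc38a5 was not tested. Ackr1 was at 0, 43.9 and 4.44 CPM in these sets labelled WT and at 1.18, 23.7 and 4.09 labelled KO. Those levels rest on the few barcodes with Ackr1 given above.

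Cells with Vwf alone had more arterial marker RNA than cells led by Slc38a5, and capillary markers went both ways. Of 7791 genes, 8 (0.103%) were higher than in cells led by Slc38a5 by 2-fold or more in both libraries, and 8 (0.103%) were lower by as much. Among the former were Hey1, at 35.5 against 4.29 CPM labelled WT and 39.5 against 3.53 labelled KO, and Alpl, an alkaline phosphatase, at 56.2 against 20.6 and 51.8 against 15.3. Among the latter was Cyp2e1, at 50.3 against 281 and 70.9 against 219. Car4, a capillary carbonic anhydrase, was 2-fold lower labelled WT only, at 417 against 926 and 530 against 913, and Cxcl12 was 2-fold higher labelled KO only, at 2335 against 1183 and 1882 against 827. Of the 14 capillary markers, 6 were higher and 6 lower in cells with Vwf alone in both libraries. The summed arterial markers outside the gate were at 1119 and 1092 in cells with Vwf alone, 802 and 784 in cells led by Slc38a5, 771 and 843 in cells with both and more Vwf, 1493 and 1602 in the other endothelial cells and 7118 and 6463 in arterial cells. Cells with Vwf alone thus lay between the rest of the members and the other endothelial cells in the summed arterial markers.

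Between the libraries, venous-side cells differed most in interferon-induced genes. Of 11358 genes with at least 50 UMIs, 49 (0.431%) were higher labelled KO by 2-fold or more, on CPM plus 10, and 14 (0.123%) were lower by as much. Lists of interferon genes, chosen with earlier results of these data known, held 31 of the 49. The type I interferon, interferon-inducible GTPase and interferon signalling lists had 26, 17 and 13 measured members, with some overlap, among 12946 genes with at least 20 UMIs. In the other endothelial cells 34 genes (0.274%) were higher and 20 (0.161%) lower, and in arterial cells 45 (0.424%) and 6 (0.0565%). The cell groups come from the same libraries, so these are not independent comparisons.

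Isg15 (chr4:156199424-156200818 on GRCm38), the ubiquitin-like protein that is attached to others during the interferon response, was at 92.6 CPM labelled WT (86.7 to 98.8) and 669 labelled KO (650 to 688). The ratio was 7.22 (6.73 to 7.75), against 4.64 in the other endothelial cells, where it was at 139 and 642. Thinned to equal depth, 16.2% and 72.2% of venous-side cells had an Isg15 UMI. Of the other endothelial cells, 20.6% and 65.3% had one. Isg15 was thus lower in venous-side than in other cells labelled WT. Labelled KO its CPM was close in both groups, and its share of cells was higher in venous-side cells. Isg15 was chosen for its ratio in venous-side cells, so this contrast is no finding.

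Irf7, the transcription factor that amplifies interferon production, was at 34.0 and 238 CPM (ratio 7.0, 6.23 to 7.89). Ifit1 and Ifit3, which bind foreign RNA and its sensors, were at 92.8 and 516 and at 67.9 and 387. Ifi27l2a, a small mitochondrial and nuclear envelope protein, was at 66.9 and 360. These genes were chosen for their ratio in venous-side cells, so a smaller ratio elsewhere is no finding. Some genes of the list outside the 12 highest, picked here after their values were seen, had nearly the same log2 ratio in both groups. Parp14 was at 1.09 in venous-side and 1.10 in other endothelial cells, Xaf1 at 1.27 and 1.26, and Cmpk2 at 1.12 and 1.07. Others outside the 12 highest, picked in the same way, had a higher log2 ratio in venous-side than in other endothelial cells. Usp18 was at 1.44 and 0.998, and Oas2 at 1.296 and 0.826.

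Bst2, tetherin, which holds budding virus at the membrane, was at 150 and 503 CPM, Oasl2, of the oligoadenylate synthetase family, at 78.9 and 322, and Rtp4, a chaperone of receptor transport that is also an interferon target, at 73.8 and 242. Slfn2, a Schlafen protein, was at 64.5 and 230, and Ifi44 at 22.5 and 136. Ifit3b, a close copy of Ifit3 with which it can share reads, was at 26.0 and 136. Plac8 was also among the 12 highest, at 3.74 and 28.3, but it was found in 7 and 16 cells, and 5 cells held 94.6% and 86.7% of its UMIs.

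All 26 measured genes of the type I interferon list (of 28 listed) were at least 1.3-fold higher labelled KO, where 238 of all 12946 genes with at least 20 UMIs (1.84%) were higher and 192 (1.48%) lower. The list's median log2 ratio was 1.27, against 0.02 over all those genes, and its smallest member was Ddx58, the RNA sensor RIG-I, at 57.8 and 102. Its summed level was 2524 CPM labelled WT and 7898 labelled KO, a ratio of 3.13 (3.08 to 3.18). The same sum had a ratio of 2.63 (2.59 to 2.66) in the other endothelial cells and 2.77 (2.72 to 2.82) in arterial cells, where all 26 measured genes were also higher (background 1.77% higher and 1.7% lower in the other endothelial cells, 3.04% and 1.54% in arterial cells). Because the sums share their libraries, the spread between those ratios has no replicate check.

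The difference ran through nearly the whole population. At 2000 UMIs per cell, a venous-side cell labelled WT held a median of 4 UMIs of the list (quartiles 3 and 7) and a cell labelled KO a median of 15 (12 and 20). At least 10 such UMIs were found in 65 of 631 cells (10.3%) and in 476 of 553 (86.1%). None were found in 18 cells labelled WT and in 0 of 553 labelled KO, which at this thinned depth allows a share of up to 0.542% (3 of 553). The sum's ratio was 2.97 (2.85 to 3.10) in cells led by Slc38a5, 3.17 (3.11 to 3.22) in those with both genes and more Vwf, and 3.07 (2.90 to 3.24) in those with Vwf alone, with 26 of 26 genes higher in each.

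**Figure D3:**
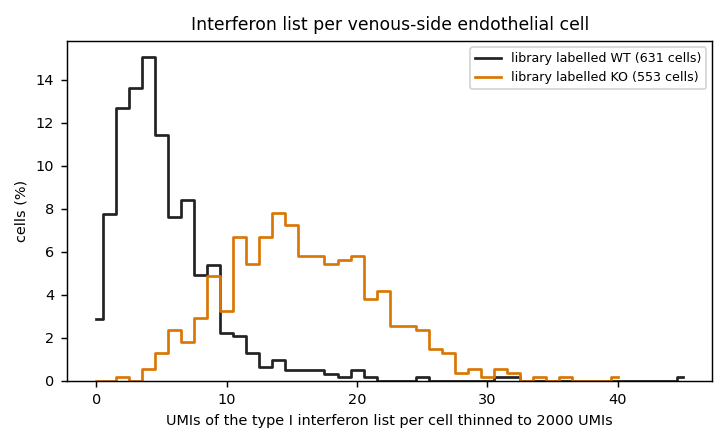
Share of venous-side cells (y axis, percent) by the number of UMIs from the type I interferon list after each cell was thinned to 2000 UMIs (x axis), for 631 cells labelled WT (black) and 553 labelled KO (orange). The WT cells have a median of 4 and the KO cells a median of 15, and the curves overlap between about 5 and 20 UMIs.

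The other interferon lists followed in part, beside the 1.84% of all genes with at least 20 UMIs that were higher. Of 17 measured interferon-inducible GTPase and gamma-response genes 16 were at least 1.3-fold higher (median log2 ratio 0.85), led by Irgm1, an immunity-related GTPase, at 45.9 and 121 CPM, and Cd74 alone was near equality, at 43.3 and 43.8. Of 13 receptor and signalling genes 3 were higher, among them Stat2 (41.8 and 110) and Irf9 (60.2 and 125), which are themselves interferon targets. Ifngr1, the ligand-binding chain of the interferon-gamma receptor, was at 73.2 and 73.5, and the kinase gene Jak2 at 69.4 and 69.4.

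MHC class I genes, which present peptides to CD8 T cells, were higher in 12 of 21 (median log2 ratio 0.43), and none was 1.3-fold lower. Over all genes with at least 20 UMIs, 1.84% were higher and 1.48% lower. H2-T23, the non-classical Qa-1 chain, was at 280 and 472 CPM, B2m, the light chain of class I molecules, at 1198 and 1739, and Psmb8, an immunoproteasome subunit, at 155 and 250. The classical chains H2-K1 (916 and 1070.0) and H2-D1 (1057 and 1210.0) stayed under 1.3-fold. H2 genes are close copies that can split reads, so single members are uncertain. MHC class II genes, which present peptides to CD4 T cells, were higher or lower in 0 of 8 measured, and their sum was at 167 and 167. That level rests on a few barcodes: labelled WT, 5 cells held 71.8% of the Cd74 UMIs, 79.0% of those of H2-Aa and 71.6% of those of H2-Ab1. With strict gates 5 of 7 measured class II genes were lower (median log2 ratio -1.36), and with Slc38a5 alone 4 of 7 were higher (0.94). Over all genes with at least 20 UMIs, 436 of 11131 were lower with strict gates, and 848 of 9647 were higher with Slc38a5 alone.

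Cd200 (chr16:45382135-45409053 on GRCm38), the ligand of the deleted receptor, was lower: 507 CPM labelled WT (493 to 521) and 393 labelled KO (379 to 407), a ratio of 0.775 (0.740 to 0.811). It was at 679 and 485 in the other endothelial cells and at 626 and 535 in arterial cells. On the log2 scale of CPM plus 10 the venous-side value was -0.36, under the 1.3-fold mark used for lists. Cd200r1 itself had 9 and 8 UMIs in all venous-side cells, which is too few to check the labels, and a 3′ tag outside a deleted stretch would not check them either.

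Some ligands that restrain T cells went the other way. Lgals9, galectin-9, was at 120 and 239 CPM, Cd274, which encodes PD-L1, at 18.2 and 34.3, and Tnfsf10, the death ligand TRAIL, at 102 and 149. These were the 3 of 7 measured genes of the CD200 and checkpoint list past 1.3-fold. Of all genes with at least 20 UMIs, 1.84% were higher. None of the list was lower by as much, and its other ligands Cd47, Pvr and Nectin2 stayed under 1.3-fold. Lgals9 was at 133 and 224 in the other endothelial cells.

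The venous adhesion programme was not among the widest differences. The counts of its list were near the share over all genes with at least 20 UMIs, 1.84% higher and 1.48% lower. None of 18 measured leukocyte adhesion and trafficking genes was 1.3-fold higher, and Ackr1 was lower, at 36.1 and 19.2 CPM. A single cell held 147 of its 357 UMIs labelled WT. Vcam1 was at 566 and 476, with a log2 ratio of -0.25 (-0.17 in the other endothelial cells), and Icam1, the ligand of leukocyte integrin LFA-1, at 95.4 and 81.3. Selp, P-selectin, the rolling receptor of venules, had 23 and 39 UMIs in 2 and 4 cells, so its level was not resolved.

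A few cytokine-response genes were lower labelled KO. Of all genes with at least 20 UMIs, 1.84% were higher and 1.48% lower. Of 27 measured acute phase genes, Ptgs2, the inducible cyclooxygenase, was higher at 32.5 and 46.5 CPM, and Lcn2 (250 and 148), Il1r1 (989 and 637), Serpina3n (10.6 and 4.16) and Ch25h (73.6 and 51.4) were lower. Il1r1 had a ratio of 0.644 (0.622 to 0.667), against 0.824 in the other endothelial cells, and was lower labelled KO in every group of members along the Slc38a5 and Vwf share: 533 and 376 just above the cut, and 1631 and 1126 at the top. Lcn2 was lower in other endothelial cells too, at 39.3 and 14.9. Serpina3n rests on 43 and 20 cells, with 5 cells holding 54.3% of its UMIs labelled WT.

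Glucocorticoid-induced genes were the list with the most members lower, where 1.48% of all genes with at least 20 UMIs were lower and 1.84% higher. Of 17 measured, 9 were at least 1.3-fold lower and none higher, with a median log2 ratio of -0.41. The same counts, 9 and 0 of 17, and a median of -0.40 held in the other endothelial cells. Fkbp5 (chr17:28399094-28517527 on GRCm38), a co-chaperone that damps the glucocorticoid receptor, was at 179 and 73.5 CPM, Zbtb16 (chr9:48654297-48836222), a zinc finger repressor, at 480 and 221, and Angptl4, an inhibitor of lipoprotein lipase, at 65.7 and 24.98. The metallothionein genes Mt1 (1241 and 687) and Mt2 (286 and 161) and the cell cycle inhibitor Cdkn1a (179 and 109) were also lower.

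Clock genes were 1.3-fold higher in 3 of 15, with none lower by as much. Over all genes with at least 20 UMIs those shares were 1.84% and 1.48%. Nr1d1, the repressor REV-ERB alpha, was at 29.9 and 82.3 CPM, Dbp at 111 and 199 and Ciart at 34.0 and 54.4, all higher labelled KO, while Per1 was at 67.4 and 54.3. Nr1d1 was at 29.9 and 80.5 in the other endothelial cells. The hour of collection is not stated in the labels.

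The 14 genes lower by 2-fold or more included 3 of the glucocorticoid list, 3 of the Ifi200 locus on chromosome 1 and 4 haemoglobin genes, beside erythroid markers that summed to 3883 CPM labelled WT, from 12 cells above 0.1%, and 878 labelled KO, from 5 cells. Without those cells, 12 genes were lower. Mndal (chr1:173849126-173942491 on GRCm38) was at 175 and 53.7 CPM, Ifi203 (chr1:173920407-173942672) at 152 and 51.3, and Ifi213 (chr1:173566283-173599274) at 38.2 and 10.7. These genes encode DNA-binding proteins of the interferon-inducible p200 family and went against the rest of the interferon genes. Mndal and Ifi203 overlap on the same strand and the family's members are alike in sequence, so the split of reads between them is uncertain. In the other endothelial cells Mndal was at 226 and 91.0.

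Aldh1a1, which makes retinoic acid, was at 113 and 30.9 CPM, with a UMI in 43.7% and 19.3% of cells before thinning, against 32.2 and 14.1 in the other endothelial cells. Ptgds, prostaglandin D synthase, was at 278 and 68.2, but 1 cell held 1770 of its 2753 UMIs labelled WT. Gadd45g, a stress-response gene, was at 149 and 69.6, and Dcbld2, a neuropilin-like receptor, at 81.9 and 36.1.

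Few genes of the barrier and vessel lists were past 1.3-fold, but few of all genes were. Of 12946 genes with at least 20 UMIs, 1.84% were higher and 1.48% lower. At that share, a list of this size holds few such genes or none. Of the barrier transporters (26 measured), junction genes (18), vesicle genes (13), Wnt and Norrin genes (22), BMP and TGFb genes (17), VEGF and angiopoietin genes (14) and oxidative phosphorylation genes (18), 0 were past 1.3-fold in either direction, and list medians lay between -0.05 and 0.02. The summed levels of these lists had ratios from 0.900 (0.891 to 0.910) for junction genes to 1.05 (1.04 to 1.06) for VEGF and angiopoietin genes. In other lists, single genes past 1.3-fold and lower included Plat, tissue plasminogen activator (319 and 213), and S1pr1, the sphingosine-1-phosphate receptor (562 and 422). Also lower by as much were the early response gene Egr1 (55.0 and 35.5), the chaperone gene Hspa1b (224 and 158) and the matrix protease Adamts9 (19.4 and 11.8). Adamts9 rests on few barcodes labelled WT, where 5 cells held 45.8% of its UMIs and 1 cell held 57 of them. Of 11 measured complement and coagulation regulators 2 were lower by 1.3-fold (18.2%) and none higher. At the low end of that list, C1s1 had a UMI in 60 and 18 cells before thinning, and C1ra in 115 and 62. The Notch ligand Dll4 (8.28 and 16.5) and Efnb2 (3.74 and 7.93), both arterial genes at low level here, were higher, and so were the chemokine genes Cxcl10 (4.34 and 10.9) and Ccl5 (9.80 and 18.5), the latter found in 15 and 18 cells. Labelled KO, 5 cells held 50.6% of the Cxcl10 UMIs.

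**Figure D4:**
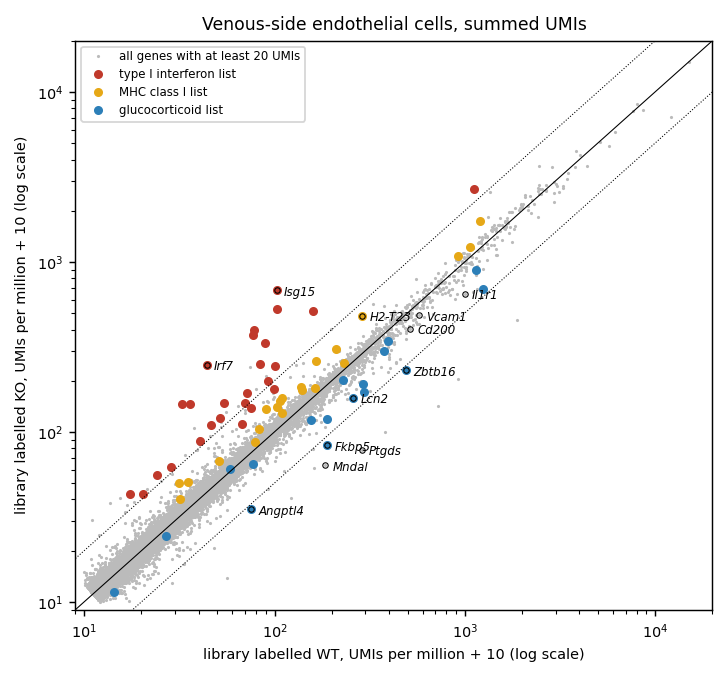
CPM plus 10 (log scales) of genes with at least 20 UMIs in venous-side cells, for the library labelled WT (x axis) and KO (y axis), each point 1 gene; the solid line is equality, the dotted lines 2-fold. The type I interferon list (red) lies above the line, Isg15 farthest at 92.6 and 669, MHC class I genes (yellow) less so, and glucocorticoid-induced genes (blue) on or below it.

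**Figure D5:**
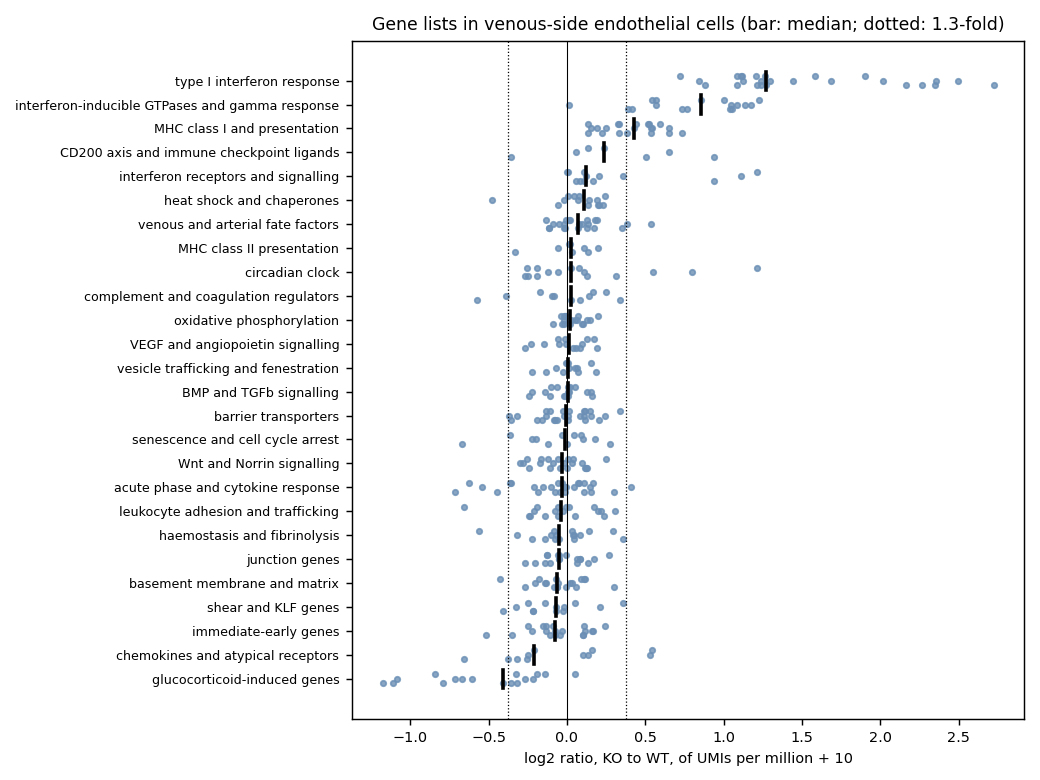
Log2 ratio, KO to WT, of CPM plus 10 (x axis) for the measured members of 26 lists in venous-side cells (y axis), each dot 1 gene, with a bar at the list's median and dotted lines at 1.3-fold. The type I interferon list has a median of 1.27, the glucocorticoid list one of -0.41, and most other medians lie near 0.

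RNA of other cell types was present in these barcodes and differed between the libraries. Choroid plexus and ependymal markers, with Ttr foremost, summed to 1462 CPM labelled WT and 2751 labelled KO, microglial markers to 1712 and 1919, mural markers to 218 and 268, astrocyte markers to 141 and 154 and neutrophil markers to 57.8 and 78.0. All 12 microglial and 10 choroid markers were detected in both libraries. Mog, of oligodendrocytes, was at 0 in both libraries, Dpt, of fibroblasts, at 0 labelled WT and Treml1, of platelets, at 0 labelled KO. Platelet markers summed to 18.7 and 11.6 and T and B cell markers to 23.1 and 22.2. Itgam, which encodes CD11b, was at 22.4 and 26.5 in venous-side cells, below the 36.5 and 38.6 of the other endothelial cells. With gates of 0.1% on each other class and without the top 5% of barcodes by UMIs, which left 167 and 91 members, 26 of 26 type I interferon genes were 1.3-fold higher, with a median log2 ratio of 1.35, and 8 of 17 glucocorticoid genes lower, with a median of -0.38. Without the choroid and ependymal gate, an alternative added after seeing the data, 26 of 26 type I interferon genes were 1.3-fold higher, with a median log2 ratio of 1.21, and 11 of 17 glucocorticoid genes lower, with a median of -0.48. Over all genes with at least 20 UMIs, 407 of 11131 were higher and 436 lower with all gates. Without the choroid gate 308 of 11812 were higher and 213 lower. In microglia the interferon list had means of 1.97 and 5.85 UMIs per thinned cell, below the 5.31 and 15.9 of venous-side cells in the same libraries.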

How the data were processed

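Raw UMI counts per gene and barcode were deposited by the authors as 2 matrices of 32285 genes, written by Cell Ranger 7.0.1 per the file headers; the submitters' processing notes also name STAR, Seurat 3.1.1 and GRCm38/mm10, and the annotation release is not given in the sources used here. Members were gated on shares of those counts, and their UMIs were summed per library and scaled to counts per 1000000 (CPM). Ratios are log2((KO + 10)/(WT + 10)) of CPM, for genes with at least 50 UMIs (2-fold) or, in lists, at least 20 (1.3-fold). Intervals are exact Poisson, Clopper-Pearson or conditional binomial, at 95%, and a count of 0 allows up to 3 counts. UMIs per cell for shares were thinned to 2000. No test was possible with 1 library per group, and no doublet caller was run: the gates and a stricter set of gates stand in for it. The calculation was tested on simulated counts. Genes were named as the 12 highest and lowest per comparison, up to 3 at each end of a list, the venous markers, Cd200 and the genes of the gates. Mitochondrial, ribosomal, haemoglobin, sex-linked, immune receptor and predicted genes and markers of other classes were left out. Values of 2 genes that the rule names are not reported here. Others were named after their values were seen: Parp14, Xaf1, Cmpk2, Usp18, Oas2, Mt1, Mt2, B2m, H2-K1, H2-D1, Itgam, the genes set apart between cells with Vwf alone and those led by Slc38a5, and the capillary genes along the share. Members and lists were chosen with earlier results of these data known. Positions are 1-based, from GENCODE vM21 (GRCm38). Python 3.11.15, numpy 2.4.6, scipy 1.17.1 and pandas 2.3.3 were used. The 11 planned and 3 added alternatives covered the UMI minimum, the venous cut and genes, gates, pseudocount, scaling, thinning and the gene minimum.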

Additional observations from a re-analysis of the deposited data

How the results depend on the processing

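No paired analysis was possible because each group has 1 library. Of 416 alternative values for the shares, gene counts and list medians, 375 stayed within the reported interval (shares), 1.5 times (gene counts) or 0.2 (list medians) of the reported value and 41 moved; no list median of at least 1.3-fold changed sign, but 41 of 338 alternative medians had the other sign, 2 of them past 0.2 (MHC class II and complement), and the ratio of shares crossed 1. Of 2717 for single named genes, 2200 stayed within the counting interval, 502 moved and 15 of genes past 1.3-fold reversed. All 26 measured type I interferon genes were at least 1.3-fold higher labelled KO under each alternative except the one without a gene minimum, where 26 of 27 were. The venous-side share labelled WT was 21.9% with a minimum of 1000 UMIs, 9.99% with a share of at least 0.1%, 5.22% with Slc38a5 alone and 49.7% with strict gates on every other class, which leave 167 and 91 members. The share labelled KO was 25.01% with a minimum of 4000 UMIs, and 7.88%, 3.30% and 60.7% under the last 3 of these. Their ratio was 0.789, 0.633 and 1.22. Genes 2-fold higher labelled KO numbered 86 with a pseudocount of 1 and 13 with 50, and lower genes 63 and 7, or 25 with strict gates. Genes higher than in other endothelial cells numbered 98 and 19 with those pseudocounts, 12 with Slc38a5 alone and 73 against cells with no Slc38a5 or Vwf UMI; lower genes 440, 7, 94 in the last case and 21 after thinning. Median log2 ratios became 1.60 and 0.95 for the type I interferon list and 1.15 and 0.50 for the GTPase list with pseudocounts of 1 and 50, and -0.63 for the glucocorticoid list with 1. With Slc38a5 alone they became 0.94 for MHC class II, -0.42 for chemokines, -0.32 for immediate-early genes and -0.26 for complement. MHC class II was at -1.36 with strict gates and 0.28 after thinning, when the clock list was also at 0.28. Alternatives added after seeing the data were strict gates without the choroid class, removal of barcodes rich in erythroid markers, and removal of members with Vwf alone. The first gave a WT share of 21.9%, 7 genes lower labelled KO and 26 lower than in other cells; the last gave shares of 19.6% and 17.0%. Reversed log2 ratios were, with Slc38a5 alone, 0.75 for Ptgds, 0.24 for Fabp7 and 0.27 for Csmd1; with the 0.1% cut, 0.25 for Npy, 0.12 for Fabp7 and 0.0037 for Csmd1; after thinning, 0.034 for Fabp7; with strict gates on all classes, 0.080 for Csmd1, 0.092 for Ackr1 and -0.39 for Ccl5; and without the choroid class, 0.16 for both Fabp7 and Csmd1, 0.046 for Serpina3n, -0.58 for Ccl5 and 0.23 for Adamts9. The cause of these shifts was not tested. Genes under about 50 UMIs are limited by depth.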
